A study of Mus musculus with 12 samples.

Results

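The genes described here are 41 genes of bone morphogenetic protein (BMP) and growth differentiation factor (GDF) signalling, namely 14 ligands, 8 receptors, 10 extracellular antagonists or modulators, 5 SMAD proteins and 4 ID target genes. They were picked by symbol in a table of raw counts of 31099 genes. Rows were read for 40 of them, Gdf7 was not analysed here, and 38 passed the filter on low counts among 18855 genes tested in all. Bmp8a and Bmp8b, with 69 and 17 counts over the 12 libraries, did not pass. RNA was sequenced from cells sorted from CD-1 mouse pups of mixed sex at postnatal day 3, in 4 groups of 3 libraries. They were perivascular preadipocytes and perivascular progenitors from the fat around the thoracic aorta, and inguinal ICAM1+ preadipocytes and inguinal DPP4+ progenitors from inguinal white fat. The labels name no treatment and no engineered allele in any group. Which surface markers were used to sort the perivascular cells is not stated in the labels. Each library is a pool of pups, and libraries that share a number share their pups. The p-values rest on the spread between such pools within groups, estimated over all 12 libraries in a single fit. They do not measure the spread between single pups. That fit did not use the shared numbers, and a fit with the numbers as a replicate block is given as an alternative.

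BMPs and GDFs are secreted dimers of the TGF-beta superfamily that bring together type I and type II serine/threonine kinase receptors. For BMPs, the type I receptor phosphorylates SMAD1, SMAD5 and SMAD9, which join SMAD4 and turn on targets that include the ID genes and the inhibitory SMAD6 and SMAD7. Secreted proteins such as Noggin, Gremlin and Chordin bind the ligands and keep them from the receptors. In adipose tissue, BMP4 is known for commitment of mesenchymal cells to the adipocyte lineage, and BMP7 and BMP8B for brown and beige fat.

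Total counts ran from 15614628 to 25674461 per library. Levels are CPM (counts divided by library size) adjusted by the trimmed mean of M values (TMM), and levels of different genes are compared only as CPM per kilobase of exon. Changes are log2 fold changes ± SE from an edgeR quasi-likelihood fit, and a gene is said to have risen or fallen only at an adjusted p under 0.05 over the 18855 genes. Scaled instead by library totals, all genes together had a median change (log2) of 0.48 between the progenitors of the 2 depots, 0.27 between the preadipocytes, 0.12 between perivascular stages and 0.40 between inguinal stages, against 0.05, 0.04, -0.05 and 0.02 with TMM. Library 1 stood apart in both perivascular groups. In perivascular preadipocyte library 1, 11 of the 38 genes lay at least 2-fold above the mean of its group's other libraries (7.5% of all genes). In perivascular progenitor library 1 it was 12 of 38 (10.2% of all genes), and in the other 10 libraries 0 to 3. DPP4+ library 2, which 1 alternative left out as well, had 3 of 38 (8.06% of all genes). At least 2-fold below that mean were 12 of 38 genes in perivascular preadipocyte library 3 (8.92% of all genes). It was 10 of 38 in perivascular progenitor libraries 2 and 3 (7.15% and 9.93% of all genes). For all of these the mean includes library 1. Results that rest on library 1 of either perivascular group are given with and without it. Icam1 averaged 497 CPM in ICAM1+ preadipocytes and 61.7 CPM in DPP4+ progenitors, and Dpp4 averaged 32 and 1509.9 CPM in these groups. In the perivascular cells, Pi16, a marker of interstitial progenitors, averaged 54 CPM in preadipocytes and 775 CPM in progenitors, Fabp4, a lipid-binding protein of the adipocyte lineage, 1962 and 243 CPM, and Icam1 39.5 and 96 CPM. Perivascular preadipocytes thus carried more Fabp4 and less Icam1 than perivascular progenitors. Of the other listed preadipocyte markers, Pparg (158 and 44.8 CPM) and Lpl (2108 and 1529 CPM) were also higher by mean in perivascular preadipocytes. Dlk1 (902 and 1691 CPM), Col15a1 (59 and 86.1 CPM) and Sparcl1 (352 and 386 CPM) were lower. All 6 adipocyte markers had counts in every group, and their summed level was 669 to 1848 CPM in perivascular preadipocytes, 154 to 183 in perivascular progenitors, 47.7 to 82 in ICAM1+ preadipocytes and 11.4 to 272 in DPP4+ progenitors. Cfd alone of the 6 averaged highest in DPP4+ progenitors (100.3 CPM, with 75.7 in perivascular preadipocytes). In perivascular preadipocyte library 1, Fabp4 had 727 CPM (2303 and 2856 in libraries 2 and 3) and Adipoq 322 (872 and 1095). Pi16 had 104 CPM there (36.8 and 21.6) and Col1a1 15537 (6759 and 4204). Dpp4, Cd55 and Dact2, other markers of interstitial progenitors, were not highest in that library. The part of these markers in the outlying values of that library was not tested.

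Between the progenitors, 9 of the 38 tested genes were higher and 10 lower in perivascular than in DPP4+ cells (13% and 11.8% of all tested genes). Between the preadipocytes, 8 were higher and 12 lower in perivascular cells (23.5% and 21.4% of all genes). In perivascular fat, 3 were higher and 14 lower in preadipocytes than in progenitors (16.8% and 16.1% of all genes), with a median log2 fold change of -0.50 over the 38 genes and of -0.05 over all genes. In inguinal fat, 5 were higher and 10 lower in ICAM1+ preadipocytes than in DPP4+ progenitors (9.34% and 8.61% of all genes). The stage difference itself differed between depots for 13 genes, 5 with a more positive and 8 with a more negative difference in perivascular fat (6.37% and 8.66% of all genes). Without library 1 of both perivascular groups, a comparison chosen after seeing the data, the numbers of genes higher and lower were 11 and 14 between progenitors, 12 and 16 between preadipocytes, 9 and 18 between perivascular stages, 12 and 13 between inguinal stages, and 11 and 14 for the difference of stage differences. The shares of all genes without these libraries were 16.2% and 16.1%, 28.6% and 26.8%, 25.6% and 24.1%, 14.4% and 14.5%, and 20.3% and 19.3% in the same order. With library totals as the scale the numbers of genes were 17 and 7, 9 and 11, 3 and 10, 9 and 9, and 4 and 9, against 33.5% and 6.54%, 31.1% and 15.6%, 21.9% and 11.1%, 23.1% and 4.86%, and 3.83% and 12.6% of all genes. On that scale 83.7%, 66.5%, 66.3%, 82.6% and 23.3% of all called genes were higher in these comparisons, against 52.5%, 52.2%, 51.1%, 52% and 42.4% with TMM. The count for perivascular stages was 11 without perivascular progenitor library 3, and that for the difference of stage differences was 6 to 8 without perivascular progenitor library 2, DPP4+ library 3, or ICAM1+ library 2 or 3. Fitted with only the perivascular libraries, 9 genes passed between perivascular stages (16.2% of all genes). The calls lost there were those of Smad5 (adjusted p = 0.0515), Chrd (0.0629), Fstl1 (0.0963), Bmpr2 (0.1), Nbl1 (0.106), Bmper (0.133), Bmp4 (0.144) and Chrdl1 (0.148).

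**Figure D1:**
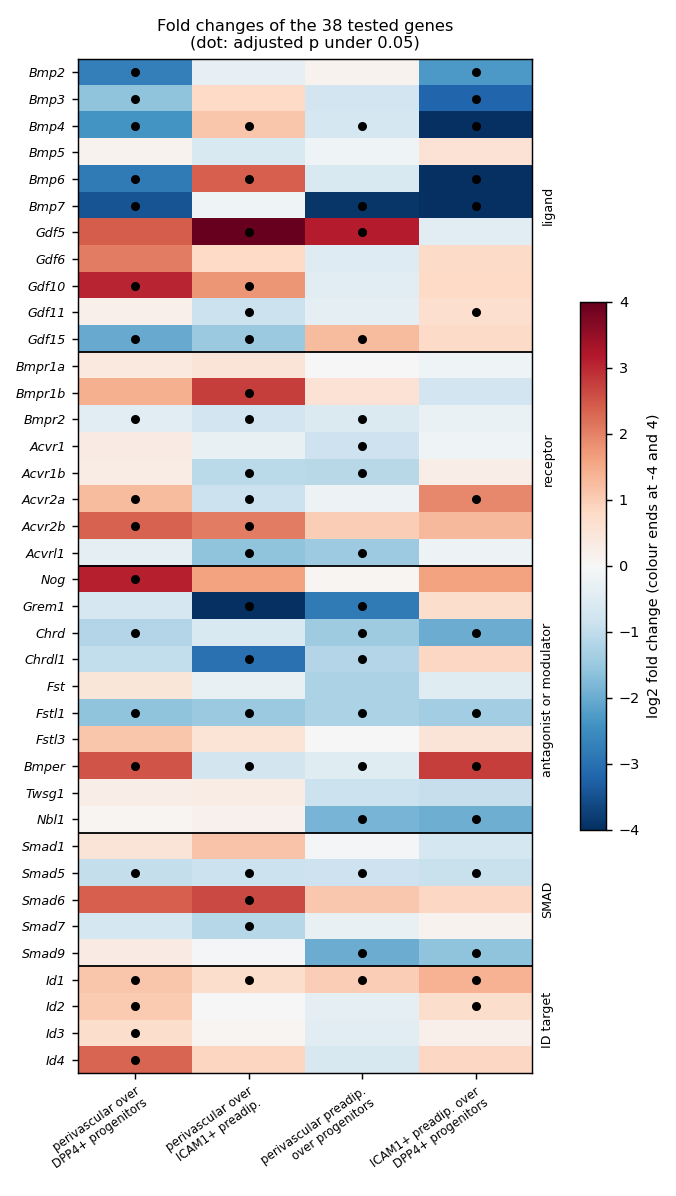
Log2 fold changes of the 38 tested genes (rows, grouped by role) in the 4 comparisons of 2 groups (columns); red is higher in the group named first, and a dot marks an adjusted p under 0.05. Id1 is red with a dot in all 4 columns, Fstl1 and Smad5 are blue with a dot in all 4, and Bmp2, Bmp3, Bmp4, Bmp6 and Bmp7 are blue with a dot in the columns set against DPP4+ progenitors.

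Of the 11 ligands tested, 6 were lower and 1 higher in perivascular than in DPP4+ progenitors (11.8% and 13% of all tested genes). In ICAM1+ preadipocytes, 5 were lower and 1 higher than in DPP4+ progenitors (8.61% and 9.34% of all genes). Bmp2, Bmp3, Bmp4, Bmp6 and Bmp7 were in both sets of lower genes, and for each of these 5 every DPP4+ library was above every other library. The 2 comparisons share the DPP4+ libraries. Fewer cells of a type and less RNA per cell cannot be told apart in these pooled RNAs. Bmp4, the commitment factor named above (chr14:46383520-46390669, mm10), had 9.19, 4.5 and 5.79 CPM in perivascular preadipocytes and 10.6, 9.21 and 11.9 in perivascular progenitors. Inguinal levels of Bmp4 were 2.7, 3.68 and 2.62 CPM in ICAM1+ preadipocytes and 59.6, 51.3 and 55.4 in DPP4+ progenitors. The 4 groups did not overlap between the pairs compared, and every DPP4+ library was above every other library. The log2 fold change was -4.20 ± 0.27 between the inguinal stages (adjusted p = 5.76e-07), -2.39 ± 0.24 between the progenitors (adjusted p = 1.64e-05) and 1.11 ± 0.25 between the preadipocytes (adjusted p = 0.00373; 0.71 without perivascular preadipocyte library 1). The fall between perivascular stages was smaller (-0.70 ± 0.24, adjusted p = 0.0408; -1.07 without perivascular preadipocyte library 1). That call was lost without perivascular progenitor 3, perivascular preadipocyte 2 or 3, any DPP4+ library, or ICAM1+ library 1 or 3 (adjusted p = 0.0549 to 0.149).

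Bmp7, a ligand known for brown fat (chr2:172868012-172940321, mm10), fell with stage in both depots. It had 0.934, 0.44 and 0.429 CPM in perivascular preadipocytes and 18.9, 4.2 and 3.79 in perivascular progenitors. Inguinal levels of Bmp7 were 0.858, 0.542 and 0.668 CPM in ICAM1+ preadipocytes and 83.4, 89.2 and 124 in DPP4+ progenitors. Preadipocytes of both depots stayed under 1 CPM, and perivascular progenitor library 1 was the high one of its group. The log2 fold change was -7.18 ± 0.66 between inguinal stages (adjusted p = 1.02e-05), -3.88 ± 0.62 between perivascular stages (adjusted p = 0.000946) and -3.46 ± 0.52 between the progenitors (adjusted p = 0.000359). Without perivascular progenitor library 1 the last 2 were -2.76 and -4.63 and still passed. Bmp6, which is also known for control of hepcidin in liver, had 0.983, 1.96 and 2.41 CPM in perivascular preadipocytes and 6.45, 1.04 and 0.595 in perivascular progenitors. Inguinal levels of Bmp6 were 0.245, 0.465 and 0.257 CPM in ICAM1+ preadipocytes and 18.6, 18.1 and 21.4 in DPP4+ progenitors. The DPP4+ libraries were the high ones, and perivascular progenitor library 1 was again apart from the others of its group. Bmp6 fell by 5.83 ± 0.80 on the log2 scale between inguinal stages (adjusted p = 0.000227) and by 2.83 ± 0.65 between the progenitors (adjusted p = 0.0062; -4.57 without perivascular progenitor library 1). Its higher level in perivascular than ICAM1+ preadipocytes (2.39 ± 0.80, adjusted p = 0.028) did not pass without perivascular preadipocyte 2 or 3 or any ICAM1+ library (adjusted p = 0.0528 to 0.0862). Between perivascular stages its log2 fold change was -0.61 ± 0.66 (adjusted p = 0.507) with all libraries and 1.07 without perivascular progenitor library 1 (adjusted p = 0.0498).

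Bmp2 and Bmp3 had the same order of inguinal groups. Bmp2, which acts through the same receptors as BMP4, had 6, 1.86 and 1.5 CPM in perivascular preadipocytes and 5.21, 2.01 and 1.3 in perivascular progenitors. Inguinal levels of Bmp2 were 4.35, 4.1 and 3.24 CPM in ICAM1+ preadipocytes and 16.7, 18.1 and 23 in DPP4+ progenitors. The 3 groups below the DPP4+ progenitors overlapped. Its log2 fold change was -2.75 ± 0.54 between the progenitors (adjusted p = 0.00229; -3.55 without perivascular progenitor library 1) and -2.31 ± 0.52 between the inguinal stages (adjusted p = 0.008). Bmp3, an atypical member that antagonises BMP signalling in bone, had 104, 25.4 and 17.3 CPM in perivascular preadipocytes and 94.7, 75.1 and 80.3 in perivascular progenitors. Inguinal levels of Bmp3 were 29.4, 27.9 and 27.6 CPM in ICAM1+ preadipocytes and 236, 239 and 286 in DPP4+ progenitors. Perivascular preadipocyte library 1 was as high as the perivascular progenitors, and libraries 2 and 3 were below every ICAM1+ library. The fall between the inguinal stages was -3.16 ± 0.51 on the log2 scale (adjusted p = 0.000807) and that between the progenitors -1.60 ± 0.48 (adjusted p = 0.0277). The second was lost without perivascular progenitor 2 or 3 or any DPP4+ library (adjusted p = 0.0558 to 0.0787) and on the scale of library totals (-1.17, adjusted p = 0.06). Between the preadipocytes Bmp3 changed sign with 1 library: 0.79 ± 0.48 with all (adjusted p = 0.195) and -0.46 without perivascular preadipocyte library 1 (adjusted p = 0.0348); it was 1.14 without perivascular preadipocyte library 3 (adjusted p = 0.0391). Between perivascular stages it was -0.77 ± 0.47 with all libraries (adjusted p = 0.231) and -1.99 without perivascular preadipocyte library 1 (adjusted p = 5.61e-06). Per kilobase of exon, Bmp3 averaged 34.3 CPM in DPP4+ progenitors, Bmp4 24.7, Bmp7 24.6, Bmp2 5.43 and Bmp6 4.96. The summed level of the 7 markers of interstitial progenitors was 132 to 431 CPM in perivascular preadipocytes, 1658 to 1829 in perivascular progenitors, 563 to 589 in ICAM1+ preadipocytes and 8100.1 to 9191 in DPP4+ progenitors, where these 5 ligands were also highest. The sum was lower in perivascular preadipocytes than in perivascular progenitors. In that comparison Bmp7 (-3.88, adjusted p = 0.000946) and Bmp4 (-0.70, adjusted p = 0.0408) fell. Bmp2, Bmp3 and Bmp6 did not pass with all libraries, and Bmp3 fell without perivascular preadipocyte library 1. The 8 endothelial markers summed to 58.6 to 98.6, 215 to 351, 143 to 186 and 737 to 943 CPM in these groups, with Tek at 684 of the 827 CPM mean of DPP4+ progenitors. The 7 without Tek summed to 45 to 77.9, 105 to 213, 71.9 to 99.7 and 96 to 213 CPM in the same order, and the progenitors of the 2 depots overlapped. The part of either list in the ligand results was not tested.

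**Figure D2:**
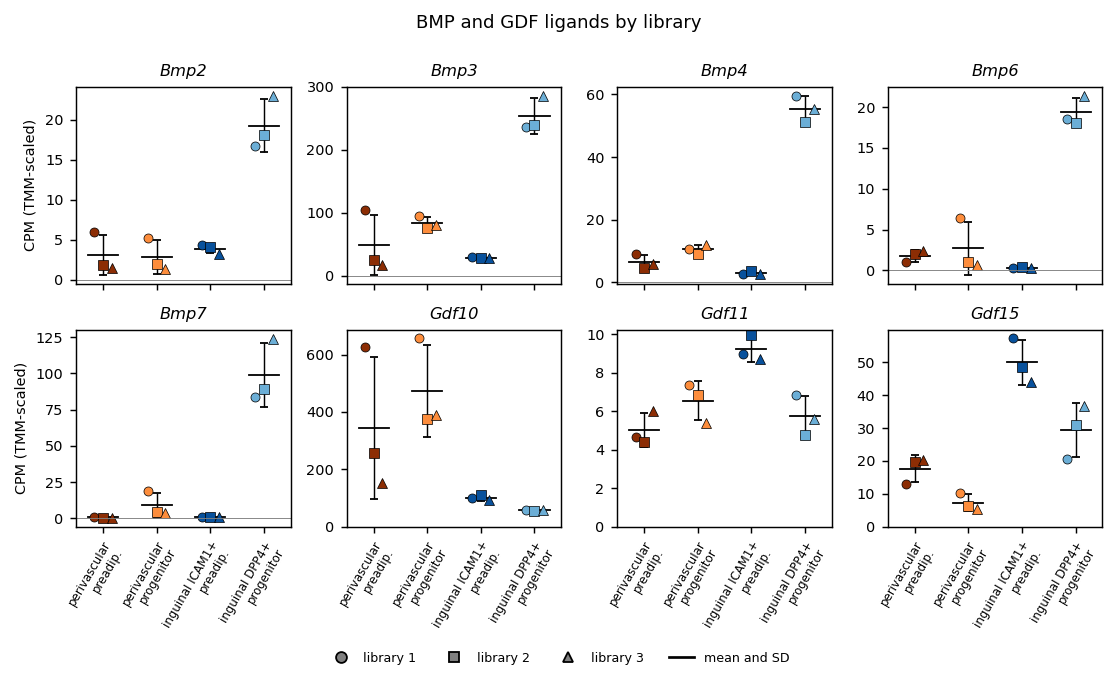
TMM-scaled CPM of 8 ligands in the 12 libraries (symbols give the library number), with the mean and SD of 3 libraries per group. Bmp2, Bmp3, Bmp4, Bmp6 and Bmp7 are highest in the 3 DPP4+ progenitor libraries, while every perivascular library of Gdf10 lies above every inguinal one, and library 1 (circles) is the high one of both perivascular groups.

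Gdf10 (BMP3B), the ligand closest in sequence to BMP3 (chr14:33923587-33937983, mm10), ran the other way. It had 625, 258 and 151 CPM in perivascular preadipocytes and 657, 375 and 388 in perivascular progenitors, against 98.9, 110.3 and 92.1 in ICAM1+ preadipocytes and 57.7, 56.6 and 58.5 in DPP4+ progenitors. Every perivascular library was above every inguinal library. The rise was 3.04 ± 0.42 on the log2 scale between the progenitors (adjusted p = 0.000194) and 1.78 ± 0.40 between the preadipocytes (adjusted p = 0.0036). Without perivascular preadipocyte library 1 the second was 0.97 (adjusted p of at most 0.0191 over the libraries left out). Per kilobase of exon, Gdf10 was the most abundant ligand in perivascular cells, at 66.1 CPM in preadipocytes and 90.9 CPM in progenitors. The stage differences did not pass: -0.46 ± 0.39 in perivascular fat (adjusted p = 0.39; -1.24 without perivascular preadipocyte library 1, adjusted p = 0.00192) and 0.80 ± 0.40 in inguinal fat (adjusted p = 0.2; adjusted p = 0.0206 without the same library). The sum of the 7 mesothelial markers was also higher around the aorta, at 30.6 to 70.8 CPM in perivascular preadipocytes and 127 to 236 in perivascular progenitors, against 10.2 to 17.4 in ICAM1+ preadipocytes and 27 to 33.1 in DPP4+ progenitors. Krt19 alone of the 7 had the lower mean in perivascular cells at both stages (5.1 CPM in perivascular and 11.8 in ICAM1+ preadipocytes, 16.3 in perivascular and 27.8 in DPP4+ progenitors). Wt1 was at 0 in 4 of the 6 inguinal libraries, Upk1b in 3 and Lrrn4 in 1. The part of these markers was not tested.

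Gdf15, a stress-induced hormone that acts on the hindbrain receptor GFRAL, was lower in perivascular cells. It had 13, 19.7 and 20.3 CPM in perivascular preadipocytes and 10.3, 6.28 and 5.36 in perivascular progenitors, against 57.3, 48.5 and 44.1 in ICAM1+ preadipocytes and 20.6, 31 and 36.7 in DPP4+ progenitors. Neither pair of groups overlapped between depots. The log2 fold change was -1.50 ± 0.27 between preadipocytes (adjusted p = 0.000946) and -2.01 ± 0.28 between progenitors (adjusted p = 0.000225), and it rose by 1.27 ± 0.28 between perivascular stages (adjusted p = 0.00519). The inguinal stage difference was 0.76 ± 0.27 (adjusted p = 0.0721), and it passed without library 1 of perivascular progenitors or of perivascular preadipocytes (adjusted p = 0.0234 to 0.0395). A set of 8 early-response and stress genes that tissue digestion can induce summed to 2974 to 5045 CPM in perivascular preadipocytes, 2773 to 4994 in perivascular progenitors, 6624 to 7466 in ICAM1+ preadipocytes and 4316 to 5123 in DPP4+ progenitors, and their part in the Gdf15 result was not tested. Gdf11, which signals through activin receptors, was lower in perivascular than ICAM1+ preadipocytes (5.03 ± 0.861 and 9.21 ± 0.648 CPM, mean ± SD, n = 3 each; -0.87 ± 0.21, adjusted p = 0.00534). Its rise between inguinal stages (0.68 ± 0.21, adjusted p = 0.0429) did not pass under the replicate block (adjusted p = 0.0694) or without perivascular progenitor 2, perivascular preadipocyte 2, DPP4+ library 2 or 3 or any ICAM1+ library (adjusted p = 0.0512 to 0.152).

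The other ligands had few counts. Gdf5, known for joint formation, had 18, 31 and 40 counts in perivascular preadipocytes and 0, 7 and 2 in perivascular progenitors, against 1, 0 and 0 in ICAM1+ preadipocytes and 1, 0 and 0 in DPP4+ progenitors. Most of its reads thus came from perivascular preadipocytes. The ratio of summed and scaled counts between preadipocytes was 92.3 with a 95% counting interval of 16.1 to 3685 (89 counts against 1; adjusted p = 0.000792), and between perivascular stages the log2 fold change was 3.14 ± 0.79 (adjusted p = 0.0103; adjusted p = 0.0514 without perivascular progenitor library 3). Exons of Gm15557 on the opposite strand cover 40.3% of the exon length of Gdf5, and without knowledge of strand their reads cannot be told apart. Bmp5 (33 to 76 counts per group) and Gdf6 (9 to 54 counts) passed the test in no comparison. Exons of Gm26903 on the opposite strand cover 46.7% of the exon length of Bmp5, with the same limit. Bmp8a had 7 counts in perivascular preadipocytes, 7 in perivascular progenitors, 18 in ICAM1+ preadipocytes and 37 in DPP4+ progenitors, and Bmp8b had 2, 6, 5 and 4 counts in these groups.

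Of the 8 receptors, 4 were lower and none higher in perivascular preadipocytes than in perivascular progenitors (16.1% and 16.8% of all tested genes). Between the preadipocytes 4 were lower and 2 higher in perivascular than in ICAM1+ cells (21.4% and 23.5% of all genes). Between the progenitors 2 were higher and 1 lower in perivascular cells (13% and 11.8% of all genes). Between inguinal stages 1 was higher and none lower in ICAM1+ preadipocytes (9.34% and 8.61% of all genes). Bmpr1a, a type I receptor for BMP2 and BMP4, averaged 91 ± 11.8 CPM in perivascular preadipocytes and 93.1 ± 56.6 in perivascular progenitors. Inguinal levels of Bmpr1a were 63 ± 2.66 CPM in ICAM1+ preadipocytes and 70.7 ± 2.17 in DPP4+ progenitors (SD, n = 3 each). It passed in no comparison: the log2 fold change was 0.40 ± 0.30 between progenitors (adjusted p = 0.375; -0.23 without perivascular progenitor library 1, which had 158 CPM) and 0.53 ± 0.30 between preadipocytes (adjusted p = 0.167; adjusted p = 0.00958 without perivascular progenitor library 1). Bmpr2, the type II receptor selective for BMPs, averaged 27.4 ± 2.66 CPM in perivascular preadipocytes and 40.8 ± 7.42 in perivascular progenitors. Inguinal levels of Bmpr2 were 46.8 ± 3.29 CPM in ICAM1+ preadipocytes and 56.2 ± 1.38 in DPP4+ progenitors. Perivascular libraries were below inguinal ones at each stage. It was lower between the preadipocytes (-0.77 ± 0.15, adjusted p = 0.00149) and between perivascular stages (-0.57 ± 0.15, adjusted p = 0.0127; lost without perivascular progenitor 3 or perivascular preadipocyte 2, adjusted p = 0.0587 to 0.07). The difference between progenitors (-0.46 ± 0.15, adjusted p = 0.0401) was lost under the replicate block (adjusted p = 0.0678) and on the scale of library totals (-0.03). It was also lost on leaving out any 1 of 9 libraries (adjusted p = 0.0596 to 0.116), that is all except perivascular progenitor 3 and perivascular preadipocytes 1 and 3.

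Acvr2a, an activin and BMP type II receptor, had 56.2, 39.6 and 27.6 CPM in perivascular preadipocytes and 69.2, 37.8 and 35.4 in perivascular progenitors. Inguinal levels of Acvr2a were 65.9, 82.8 and 76.4 CPM in ICAM1+ preadipocytes and 18.9, 22.8 and 18.3 in DPP4+ progenitors. DPP4+ libraries were the lowest of all. It rose between inguinal stages (1.91 ± 0.29, adjusted p = 0.000486) and was higher in perivascular than DPP4+ progenitors (1.25 ± 0.28, adjusted p = 0.00626). It was lower in perivascular than ICAM1+ preadipocytes (-0.87 ± 0.28, adjusted p = 0.0232). That call was lost without perivascular preadipocyte 2 or 3 or ICAM1+ library 2 or 3 (adjusted p = 0.0579 to 0.0749) and with library totals (-0.65, adjusted p = 0.0723). Acvr2b, the related type II receptor, had 2.8, 4.69 and 7.51 CPM in perivascular preadipocytes and 5.16, 1.27 and 1.08 in perivascular progenitors. Inguinal levels of Acvr2b were 0.98, 1.32 and 1.29 CPM in ICAM1+ preadipocytes and 0.5, 0.38 and 0.574 in DPP4+ progenitors. Perivascular libraries were above inguinal libraries of the same stage, by 2.05 ± 0.55 in preadipocytes (adjusted p = 0.00921) and 2.36 ± 0.64 in progenitors (adjusted p = 0.0169). The progenitor difference was 1.26 without perivascular progenitor library 1 (adjusted p = 0.0779) and was also lost without DPP4+ library 1 or 2 (adjusted p of at least 0.0551). Acvr1b, the activin type I receptor ALK4, had 6.54, 5.23 and 6.22 CPM in perivascular preadipocytes and 9.5, 15.2 and 14.6 in perivascular progenitors. Inguinal levels of Acvr1b were 9.13, 13.4 and 15.2 CPM in ICAM1+ preadipocytes and 10.1, 10.1 and 11.7 in DPP4+ progenitors. Perivascular preadipocytes lay below the 3 other groups, by -1.12 ± 0.24 against perivascular progenitors (adjusted p = 0.00404) and -1.07 ± 0.24 against ICAM1+ preadipocytes (adjusted p = 0.00307).

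Acvrl1 (ALK1), a type I receptor known from endothelial cells that binds BMP9 and BMP10, had 40.3, 22.8 and 18.8 CPM in perivascular preadipocytes and 67.5, 76.3 and 77.7 in perivascular progenitors. Inguinal levels of Acvrl1 were 77.5, 81.2 and 91 CPM in ICAM1+ preadipocytes and 97.8, 96.8 and 92.6 in DPP4+ progenitors. It was lower in perivascular preadipocytes than in perivascular progenitors (-1.44 ± 0.23, adjusted p = 0.000921) and than in ICAM1+ preadipocytes (-1.61 ± 0.23, adjusted p = 0.000173). Pecam1, 1 of the 8 endothelial markers, averaged 18.3 CPM in perivascular preadipocytes, 34.2 in perivascular progenitors, 24.2 in ICAM1+ preadipocytes and 38.7 in DPP4+ progenitors. Cdh5, another such gene, averaged 2.03, 3.97, 8.43 and 11.4 CPM in the same order of groups. Of the 8 endothelial markers, Vwf (24 CPM in perivascular and 12.4 in ICAM1+ preadipocytes) and Erg (1.39 and 0.866 CPM) had the higher mean in perivascular preadipocytes, and the other 6 the lower. All 8 had a lower mean in perivascular preadipocytes than in perivascular progenitors, and their part in the Acvrl1 result was not tested. Acvr1 (ALK2), a further BMP type I receptor, fell between perivascular stages (12.1 ± 2.14 and 21.4 ± 2.99 CPM in preadipocytes and progenitors; -0.82 ± 0.19, adjusted p = 0.00701). Bmpr1b, the type I receptor known from cartilage, was low, at 3.64 ± 3.39 CPM in perivascular and 0.549 ± 0.35 CPM in ICAM1+ preadipocytes, and the groups overlapped (2.75 ± 0.69, adjusted p = 0.00649; 1.64 without perivascular preadipocyte library 1). Per kilobase of exon the most abundant receptor was Bmpr1a in perivascular preadipocytes (14.3 CPM) and Acvrl1 in the other groups (17.3 CPM in perivascular progenitors, 19.5 in ICAM1+ preadipocytes and 22.4 in DPP4+ progenitors).

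Of the 10 antagonists and modulators, 6 were lower and none higher in perivascular preadipocytes than in perivascular progenitors (16.1% and 16.8% of all tested genes). Between the preadipocytes 4 were lower and none higher in perivascular than in ICAM1+ cells (21.4% and 23.5% of all genes). Between the progenitors 2 were higher and 2 lower in perivascular cells (13% and 11.8% of all genes). Between inguinal stages 1 was higher and 3 lower in ICAM1+ preadipocytes (9.34% and 8.61% of all genes). Bmper, a secreted BMP-binding protein that can inhibit or promote BMP4 signalling (chr9:23223076-23485200, mm10), had 186, 199 and 146 CPM in perivascular preadipocytes and 238, 255 and 255 in perivascular progenitors. Inguinal levels of Bmper were 272, 298 and 327 CPM in ICAM1+ preadipocytes and 44, 44.1 and 43 in DPP4+ progenitors. DPP4+ progenitors were the low group, where Bmp2, Bmp3, Bmp4, Bmp6 and Bmp7 were high. The log2 fold change of Bmper was 2.77 ± 0.15 between inguinal stages (adjusted p = 1.54e-07) and 2.51 ± 0.15 between the progenitors (adjusted p = 2.46e-07). Perivascular preadipocytes were lower than ICAM1+ preadipocytes (-0.75 ± 0.14, adjusted p = 0.00109) and than perivascular progenitors (-0.49 ± 0.14, adjusted p = 0.0182; lost without perivascular progenitor library 2 or 3, adjusted p = 0.0507 to 0.0625, and adjusted p = 0.0974 on the scale of library totals). Grem1, which binds BMP2, BMP4 and BMP7, had 2, 4 and 1 counts in perivascular preadipocytes and 15, 18 and 15 in perivascular progenitors, against 40, 40 and 56 in ICAM1+ preadipocytes and 10, 22 and 22 in DPP4+ progenitors. Its few reads were rarest in perivascular preadipocytes, with a log2 fold change of -4.20 ± 0.52 against ICAM1+ preadipocytes (adjusted p = 7.13e-05) and -2.82 ± 0.55 against perivascular progenitors (adjusted p = 0.00271).

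Chrdl1, a Chordin-like BMP4 antagonist, had 114, 39.6 and 24.9 CPM in perivascular preadipocytes and 109, 130.3 and 159 in perivascular progenitors. Inguinal levels of Chrdl1 were 423, 442 and 531 CPM in ICAM1+ preadipocytes and 279.7, 267 and 239 in DPP4+ progenitors. Both perivascular groups lay below both inguinal groups. The difference was -2.97 ± 0.43 between preadipocytes (adjusted p = 0.000208; -3.91 without perivascular preadipocyte library 1) and -0.98 ± 0.41 between progenitors (adjusted p = 0.0992; it passed without perivascular preadipocyte library 1 or 3, adjusted p = 0.00175 to 0.0294). The fall between perivascular stages (-1.16 ± 0.41, adjusted p = 0.0455) rested on the full set: it was lost on leaving out any 1 of 10 libraries (adjusted p = 0.0608 to 0.16), that is all except perivascular progenitor 1 and perivascular preadipocyte 1, and it was -2.08 without the second of these. Perivascular preadipocyte library 1 lay above 1 perivascular progenitor library. Chrd, which encodes Chordin, had 12.6, 4.35 and 4.18 CPM in perivascular preadipocytes and 23, 17.1 and 16.7 in perivascular progenitors. Inguinal levels of Chrd were 11.7, 9.95 and 11.1 CPM in ICAM1+ preadipocytes and 36.4, 37.7 and 53.6 in DPP4+ progenitors. In each depot the preadipocytes were below the progenitors, with log2 fold changes of -1.42 ± 0.36 in perivascular fat (adjusted p = 0.0104; -2.18 without perivascular preadipocyte library 1; lost with only the perivascular libraries in the fit, -1.40, adjusted p = 0.0629) and -1.97 ± 0.36 in inguinal fat (adjusted p = 0.00201). The difference between progenitors (-1.17 ± 0.35, adjusted p = 0.0283) was lost without perivascular progenitor 2 or 3 or DPP4+ library 2 or 3 (adjusted p = 0.0505 to 0.114) and on the scale of library totals (-0.72, adjusted p = 0.101).

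Fstl1, a secreted glycoprotein related to follistatin, had the highest level per kilobase of exon of the 40 genes with a row in every group (329 CPM per kilobase in perivascular preadipocytes, 800.2 in perivascular progenitors, 926 in ICAM1+ preadipocytes and 2451 in DPP4+ progenitors). It had 2853, 1191 and 808 CPM in perivascular preadipocytes and 3600.5, 3847 and 4349 in perivascular progenitors. Inguinal levels of Fstl1 were 4341, 4597 and 4719 CPM in ICAM1+ preadipocytes and 12478, 11514 and 12145 in DPP4+ progenitors. No compared pair of groups overlapped, and perivascular preadipocyte library 1 stood above the other libraries of its group. It was lower in perivascular than ICAM1+ preadipocytes (-1.49 ± 0.36, adjusted p = 0.00495; -2.24 without perivascular preadipocyte library 1), in perivascular than DPP4+ progenitors (-1.62 ± 0.36, adjusted p = 0.00524), between perivascular stages (-1.28 ± 0.35, adjusted p = 0.0159) and between inguinal stages (-1.40 ± 0.36, adjusted p = 0.0151). The perivascular stage call was lost without perivascular progenitor 3 or perivascular preadipocyte 2 (adjusted p = 0.0515 to 0.0722; -2.01 without perivascular preadipocyte library 1), and the inguinal one without any ICAM1+ library (adjusted p = 0.0542 to 0.0648). A set of 5 fibroblast genes, among them Col1a1, Col3a1 and Dcn, summed to 26629 to 71644 CPM in perivascular preadipocytes, 101567 to 164012 in perivascular progenitors, 138640.2 to 165390.5 in ICAM1+ preadipocytes and 264394 to 314268 in DPP4+ progenitors. The sum, most of it Col1a1 and Col3a1, had its lowest and highest groups in common with Fstl1. Dcn averaged highest in perivascular progenitors (13135 CPM, against 11012 in DPP4+ progenitors) and Pdgfra in ICAM1+ preadipocytes (623 CPM, against 493 in DPP4+ progenitors). The part of these genes was not tested.

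Nbl1 (DAN), a BMP-binding protein of the Gremlin family, had 33.3, 26.1 and 23.2 CPM in perivascular preadipocytes and 229, 38.7 and 31.8 in perivascular progenitors. Inguinal levels of Nbl1 were 25.1, 29.5 and 18.9 CPM in ICAM1+ preadipocytes and 63.5, 80.2 and 139.5 in DPP4+ progenitors. Perivascular progenitor library 1 was above every other library. With all libraries the difference between progenitors did not pass (0.08 ± 0.59, adjusted p = 0.938), and without that library Nbl1 was lower in perivascular progenitors (-1.42, adjusted p = 0.00357). The fall between perivascular stages (-1.86 ± 0.61, adjusted p = 0.034) was -0.41 without it (adjusted p = 0.278), -1.59 with the replicate block (adjusted p = 0.076), and was lost without perivascular preadipocyte 2 or 3 as well (adjusted p of at least 0.0994). The fall between inguinal stages (-1.94 ± 0.61, adjusted p = 0.0441) was lost without perivascular preadipocyte 2 or any inguinal library (adjusted p = 0.0568 to 0.156) and on the scale of library totals (-1.55, adjusted p = 0.0718). Fst, which encodes follistatin, an antagonist of activins, had the same outlying library: 12.3, 25.1 and 43.3 CPM in perivascular preadipocytes and 154, 21.8 and 19.5 in perivascular progenitors. Inguinal levels of Fst were 32.8, 35.7 and 31.1 CPM in ICAM1+ preadipocytes and 53.5, 41.5 and 46 in DPP4+ progenitors. Between progenitors its log2 fold change was 0.47 ± 0.65 with all libraries (adjusted p = 0.647) and -1.20 without perivascular progenitor library 1 (adjusted p = 0.0256). Nog, which encodes Noggin, was low, at 4.56 ± 1.73 CPM in perivascular preadipocytes and 4.26 ± 4.41 in perivascular progenitors. Inguinal levels of Nog were 1.5 ± 0.129 CPM in ICAM1+ preadipocytes and 0.495 ± 0.461 in DPP4+ progenitors. It was higher in perivascular than DPP4+ progenitors (3.12 ± 0.83, adjusted p = 0.0156), and the value was 1.81 without perivascular progenitor library 1 (adjusted p = 0.0663), which had 9.34 CPM. Between preadipocytes it was 1.60 ± 0.70 (adjusted p = 0.0811; adjusted p = 0.0195 without perivascular progenitor library 1). Twsg1, a modulator that binds BMPs with Chordin, passed in no comparison: it was -0.85 ± 0.38 between perivascular stages (adjusted p = 0.104; -1.65 without perivascular preadipocyte library 1, adjusted p = 0.000166) and -0.91 ± 0.38 between inguinal stages (adjusted p = 0.128; adjusted p = 0.00534 to 0.0179 without perivascular preadipocyte library 1 or 3). Fstl3 passed in no comparison, at 3.15 to 6.79 CPM by group mean, and exons of Prss57 on the opposite strand cover 47.3% of its exon length.

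**Figure D3:**
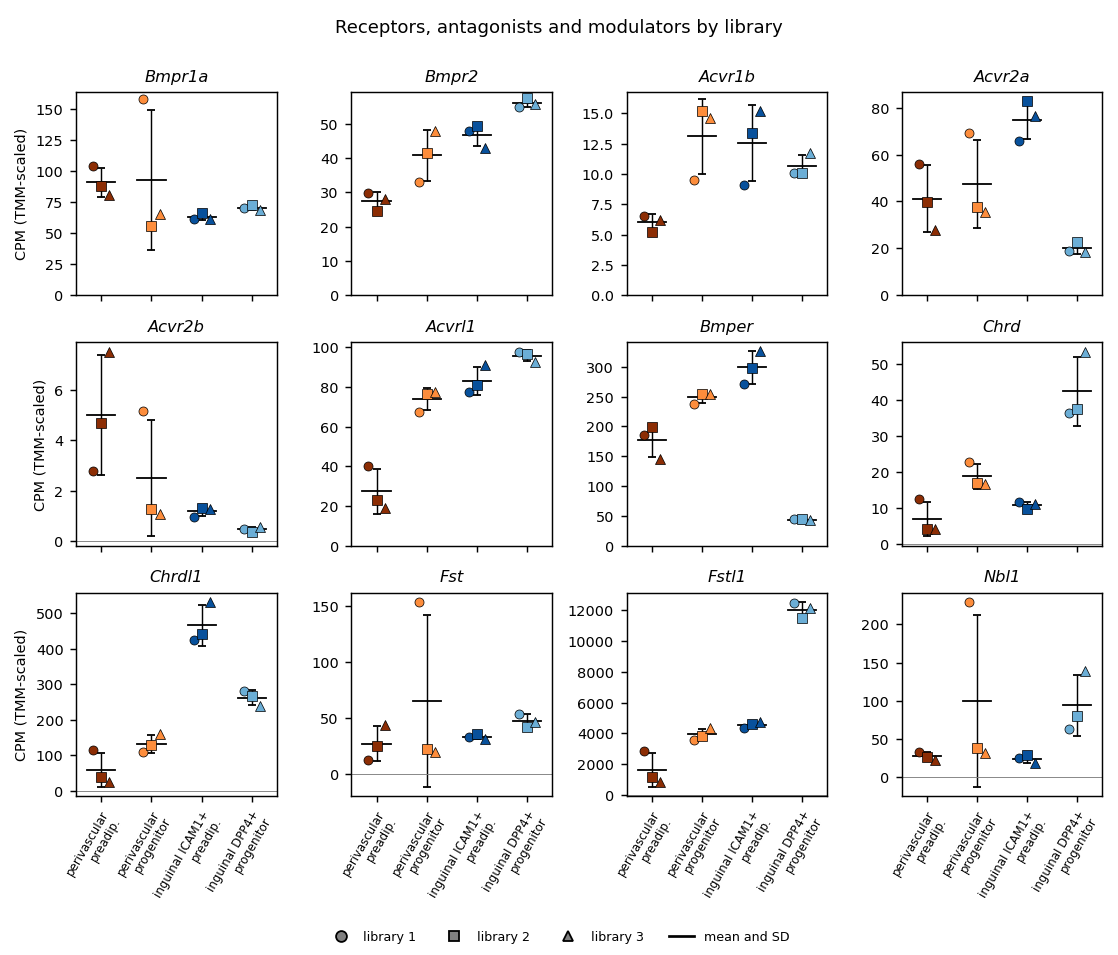
TMM-scaled CPM of 6 receptors (Bmpr1a to Acvrl1) and 6 antagonists or modulators (Bmper to Nbl1) in the 12 libraries, with the mean and SD of 3 libraries per group. Bmper is at 43 to 44.1 CPM in the DPP4+ progenitors and at 146 CPM or more elsewhere, and library 1 of the perivascular progenitors (circle) is the outlying point of Bmpr1a, Fst and Nbl1.

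Of the 5 SMAD genes, Smad5, which carries the BMP signal to the nucleus, was lower in all 4 comparisons. It averaged 37.7 ± 6.71 CPM in perivascular preadipocytes and 67.4 ± 14.8 in perivascular progenitors. Inguinal levels of Smad5 were 69.2 ± 6.08 CPM in ICAM1+ preadipocytes and 129 ± 11.8 in DPP4+ progenitors (SD, n = 3 each). The log2 fold change was -0.87 ± 0.18 between preadipocytes (adjusted p = 0.00217), -0.94 ± 0.18 between progenitors (adjusted p = 0.00213), -0.84 ± 0.18 between perivascular stages (adjusted p = 0.00483; lost with only the perivascular libraries in the fit, adjusted p = 0.0515) and -0.90 ± 0.18 between inguinal stages (adjusted p = 0.00366). Smad1, its close relative, passed in no comparison with all libraries: it averaged 57.1 ± 22.4 CPM in perivascular preadipocytes and 58.6 ± 57.9 in perivascular progenitors. Inguinal levels of Smad1 were 25.7 ± 2.53 CPM in ICAM1+ preadipocytes and 41.4 ± 7.13 in DPP4+ progenitors. Perivascular progenitor library 1 had 125 CPM and the other libraries of that group 25.4 and 25, and the difference between progenitors was 0.50 ± 0.51 with it and -0.72 without it (adjusted p = 0.518 and 0.0684). It passed as lower without the 3 libraries perivascular progenitor 1, perivascular preadipocyte 1 and DPP4+ progenitor 2 (-0.73, adjusted p = 0.00748) and without perivascular library 1 of both stages (-0.69, adjusted p = 0.00509). Smad9, the least abundant of these, had 20 counts in perivascular preadipocytes and 75 in perivascular progenitors. Inguinal counts of Smad9 were 22 in ICAM1+ preadipocytes and 43 in DPP4+ progenitors. It fell with stage in perivascular fat (-1.99 ± 0.42, adjusted p = 0.00405) and in inguinal fat (-1.60 ± 0.43, adjusted p = 0.0201), the second call being lost without DPP4+ library 1 or ICAM1+ library 1 or 2 (adjusted p = 0.0611 to 0.0998).

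Smad6, an inhibitor of BMP receptors and itself a BMP target (chr9:63953076-64022059, mm10), had 10.3, 17 and 22.6 CPM in perivascular preadipocytes and 20.9, 1.27 and 1.3 in perivascular progenitors. Inguinal levels of Smad6 were 2.02, 2.94 and 2.98 CPM in ICAM1+ preadipocytes and 1.14, 1.67 and 1.64 in DPP4+ progenitors. Perivascular preadipocytes and perivascular progenitor library 1 were high, and the other 8 libraries were under 3 CPM. Smad6 was higher in perivascular than ICAM1+ preadipocytes (2.64 ± 0.84, adjusted p = 0.022), a call lost without perivascular preadipocyte 3 or any ICAM1+ library (adjusted p = 0.0611 to 0.0736). The stage difference in perivascular fat was 1.09 ± 0.78 with all libraries (adjusted p = 0.309) and 3.63 without perivascular progenitor library 1 (adjusted p = 1.36e-05). Between progenitors it was 2.40 ± 0.89 with all libraries (adjusted p = 0.069) and -0.21 without that library (adjusted p = 0.76). It passed there without perivascular progenitor 2 or 3 (adjusted p = 0.0197 to 0.0208), on the scale of library totals (2.84, adjusted p = 0.0257) and in DESeq2 (2.34, adjusted p = 0.0471). Smad7, an inhibitory SMAD of both BMP and TGF-beta signalling, had 3.64, 3.18 and 3.92 CPM in perivascular preadipocytes and 7.54, 2.82 and 2.87 in perivascular progenitors. Inguinal levels of Smad7 were 7.6, 8.9 and 6.94 CPM in ICAM1+ preadipocytes and 8.36, 7.29 and 5.66 in DPP4+ progenitors. It was lower in perivascular than ICAM1+ preadipocytes (-1.13 ± 0.34, adjusted p = 0.0175; lost without perivascular preadipocyte 2 or ICAM1+ library 2, adjusted p = 0.0628 to 0.0637). Between progenitors it was -0.69 ± 0.34 (adjusted p = 0.17), and -1.33 without perivascular progenitor library 1 (adjusted p = 0.00179).

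All 4 ID genes, which encode inhibitors of basic helix-loop-helix transcription factors and are direct targets of BMP SMADs, were higher in perivascular than in DPP4+ progenitors. Of all tested genes, 13% were higher in that comparison. Id1 (chr2:152736251-152737410, mm10) had 63.5, 87.1 and 121 CPM in perivascular preadipocytes and 53.1, 46.7 and 39 in perivascular progenitors. Inguinal levels of Id1 were 54.7, 57.6 and 56.2 CPM in ICAM1+ preadipocytes and 18.7, 22.9 and 22.1 in DPP4+ progenitors. No compared pair of groups overlapped, and the DPP4+ progenitors, where 5 BMP ligands were highest, were lowest. Id1 was higher by 1.12 ± 0.21 between progenitors (adjusted p = 0.00177), by 0.97 ± 0.21 between perivascular stages (adjusted p = 0.00441), by 1.40 ± 0.21 between inguinal stages (adjusted p = 0.00048) and by 0.69 ± 0.21 between preadipocytes (adjusted p = 0.0162). The last call was lost without perivascular preadipocyte 3 (0.37, adjusted p = 0.101) or ICAM1+ library 1 or 3 (adjusted p of at least 0.0509). The summed adipocyte markers given above were also highest in perivascular preadipocytes, and their part was not tested. Id2 had 276, 189.9 and 200.5 CPM in perivascular preadipocytes and 316, 263 and 291 in perivascular progenitors. Inguinal levels of Id2 were 218, 239 and 214 CPM in ICAM1+ preadipocytes and 133, 134 and 149.8 in DPP4+ progenitors. Here the preadipocytes of the 2 depots overlapped (-0.01 ± 0.16, adjusted p = 0.972). Id2 was higher between progenitors (1.06 ± 0.16, adjusted p = 0.000356) and between inguinal stages (0.69 ± 0.16, adjusted p = 0.00909).

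Id4 had 15.2, 13.1 and 21.9 CPM in perivascular preadipocytes and 54.1, 10.9 and 12.6 in perivascular progenitors. Inguinal levels of Id4 were 9.68, 8.79 and 9.3 CPM in ICAM1+ preadipocytes and 4.57, 4.63 and 6.4 in DPP4+ progenitors. Every perivascular library was above every inguinal library. The difference between progenitors was 2.32 ± 0.51 (adjusted p = 0.00529) and 1.18 without perivascular progenitor library 1, where it still passed (adjusted p of at most 0.0264 over the libraries left out). Id3, the most abundant of the 4 per kilobase of exon (180.4 CPM per kilobase in perivascular preadipocytes, 244 in perivascular progenitors, 172 in ICAM1+ preadipocytes and 149 in DPP4+ progenitors), was higher between progenitors (0.71 ± 0.17, adjusted p = 0.00763) and passed in no other comparison.

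**Figure D4:**
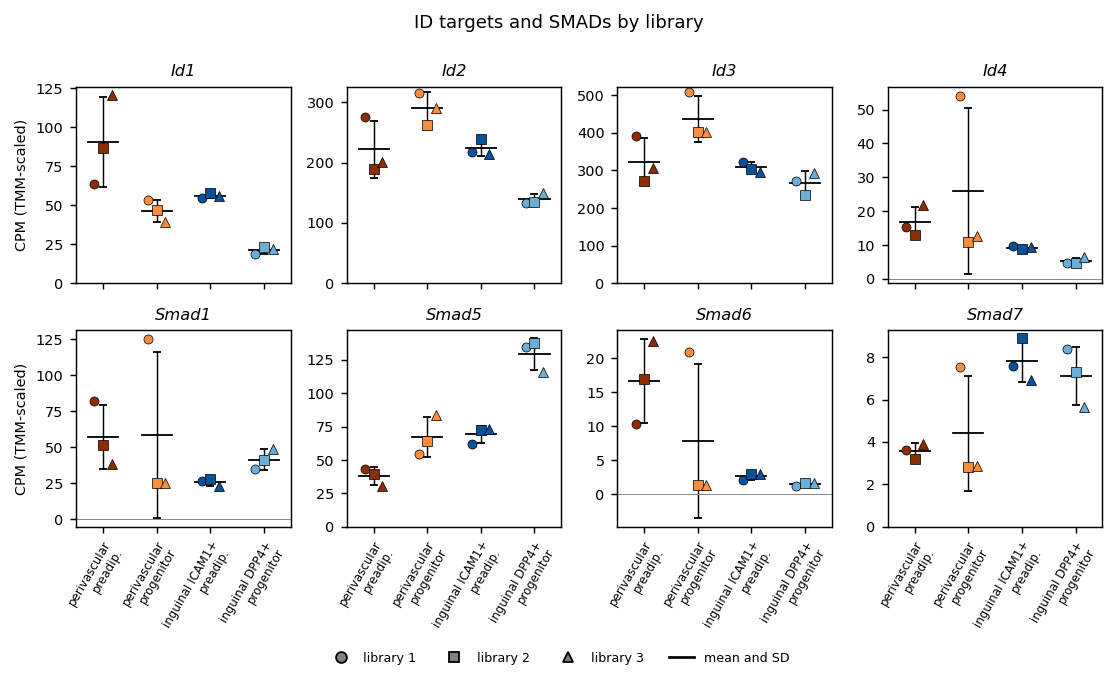
TMM-scaled CPM of the 4 ID genes and 4 SMAD genes in the 12 libraries, with the mean and SD of 3 libraries per group. The DPP4+ progenitors are lowest for the mean of Id1, Id2, Id3 and Id4 and highest for Smad5, and perivascular progenitor library 1 (circle) lies apart from libraries 2 and 3 for Id4, Smad1, Smad6 and Smad7.

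The promoters of Id2, Id4 and Smad6 are printed because these 3 BMP targets passed the test in at least 1 comparison and hold a motif known to be bound by SMADs. The sequences are from RefSeq. Each stretch is 5′ to 3′ on the gene's strand, from 250 bases before the start site to 50 bases from it on, build GRCm38.p6. Capitals mark the motifs, GGCGCC in Id2 and Id4 and GTCTAGAC in Smad6.
Id2, chr12:25096043-25096342 (minus strand): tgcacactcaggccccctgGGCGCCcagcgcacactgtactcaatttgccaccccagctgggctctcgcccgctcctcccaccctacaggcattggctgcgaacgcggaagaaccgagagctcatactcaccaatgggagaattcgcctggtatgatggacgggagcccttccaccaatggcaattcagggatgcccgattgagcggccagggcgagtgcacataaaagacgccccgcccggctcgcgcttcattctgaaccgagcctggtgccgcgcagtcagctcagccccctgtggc
Id4, chr13:48260866-48261165 (plus strand): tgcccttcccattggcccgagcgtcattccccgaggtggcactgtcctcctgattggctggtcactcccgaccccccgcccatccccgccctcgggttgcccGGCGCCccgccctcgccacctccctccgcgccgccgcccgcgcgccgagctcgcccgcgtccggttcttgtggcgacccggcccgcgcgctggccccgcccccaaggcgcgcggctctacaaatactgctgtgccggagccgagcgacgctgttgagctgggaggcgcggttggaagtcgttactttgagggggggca
Smad6, chr9:64022010-64022309 (minus strand): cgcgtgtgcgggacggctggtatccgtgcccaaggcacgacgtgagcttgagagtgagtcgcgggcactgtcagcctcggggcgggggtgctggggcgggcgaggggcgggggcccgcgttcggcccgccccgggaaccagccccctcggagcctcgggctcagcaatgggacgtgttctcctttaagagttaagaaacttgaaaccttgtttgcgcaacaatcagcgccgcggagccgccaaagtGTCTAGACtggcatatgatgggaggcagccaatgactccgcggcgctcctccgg
Both motifs are palindromes, so 1 strand was searched for both, and they do not overlap each other. GGCGCC occurs in 11.9% of the 32851 promoters of the table, and GTCTAGAC in 0.213%. Of the 41 listed genes, 30 had a promoter that was searched. These 30 genes had 35 promoters, and GGCGCC was in at least 1 promoter of 11 genes, whereas the share of 11.9% counts promoters. The 11 were Acvr1b, Bmpr1a, Bmpr2, Chrd, Gdf10, Grem1, Id2, Id4, Nbl1, Smad5 and Smad9. GTCTAGAC was in Smad6 alone of the 30. The other listed genes were not searched and may hold either motif. Counted from the start site, the first base of the motif is at -231 in Id2, at -148 in Id4 and at -4 in Smad6. A match describes the letters of this window and is not evidence of binding in these cells.

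In all, 13 genes changed with stage by different amounts in the 2 depots (the change from progenitors to preadipocytes in perivascular fat minus that in inguinal fat). Of all tested genes, 15% did. The 5 ligands of the DPP4+ progenitors had positive differences, with lower values of the stage change in inguinal fat: Bmp6 5.22 ± 1.02 (adjusted p = 0.0054), Bmp4 3.50 ± 0.35 (adjusted p = 6.45e-05), Bmp7 3.30 ± 0.90 (adjusted p = 0.028), Bmp2 2.44 ± 0.74 (adjusted p = 0.044) and Bmp3 2.39 ± 0.68 (adjusted p = 0.0334). Those of Bmp4 and Bmp6 passed in every setting tried, and that of Bmp6 was 6.91 without perivascular progenitor library 1. The call of Bmp7 was lost without perivascular preadipocyte 1 or 2, DPP4+ library 3 or ICAM1+ library 2 or 3 (adjusted p = 0.0506 to 0.0757). That of Bmp3 was lost without perivascular progenitor 2 or 3 or any inguinal library (adjusted p = 0.055 to 0.0786; 1.17 without perivascular preadipocyte library 1), and that of Bmp2 without those or perivascular preadipocyte library 1 (adjusted p = 0.0688 to 0.106; 1.53 without that library). The difference of stage differences of Bmper was -3.27 ± 0.20 (adjusted p = 3.21e-06), and passed in every other setting tried: Bmper rose between inguinal stages and fell between perivascular stages. Grem1 (-3.54 ± 0.69, adjusted p = 0.00528), Acvr2a (-2.12 ± 0.40, adjusted p = 0.00442) and Id2 (-1.07 ± 0.22, adjusted p = 0.008) also held when any 1 library was left out. Chrdl1 (-1.99 ± 0.57, adjusted p = 0.0364) was lost on leaving out any 1 of 9 libraries, all except perivascular progenitor 1 and perivascular preadipocytes 1 and 3 (adjusted p = 0.0609 to 0.0928; -2.91 without perivascular preadipocyte library 1). Acvr1b (-1.37 ± 0.33, adjusted p = 0.0164) was lost without ICAM1+ library 3 (adjusted p = 0.0507), and Acvrl1 (-1.23 ± 0.32, adjusted p = 0.0217) without perivascular progenitor 2 or 3, perivascular preadipocyte 2, DPP4+ library 3 or ICAM1+ library 3 (adjusted p = 0.0501 to 0.0616). Gdf11 (-1.06 ± 0.30, adjusted p = 0.0335) did not pass under the replicate block (-1.07, adjusted p = 0.0596) or without perivascular progenitor 2, perivascular preadipocyte 2, DPP4+ library 2 or 3 or any ICAM1+ library (adjusted p = 0.0647 to 0.0879). Gdf10 and Smad6 did not pass with all libraries (-1.26 ± 0.56 and 0.24 ± 1.21, adjusted p = 0.143 and 0.912), and each passed without 1 library: Gdf10 at -2.03 without perivascular preadipocyte library 1 (adjusted p = 0.000928) and Smad6 at 2.80 without perivascular progenitor library 1 (adjusted p = 0.00117).

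**Figure D5:**
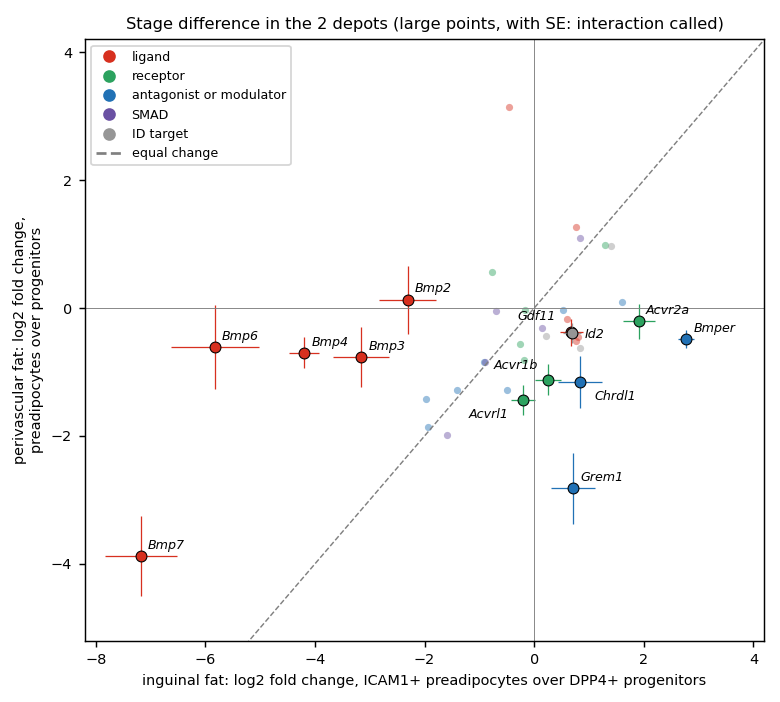
Stage difference in perivascular fat (y axis, log2 fold change of preadipocytes over progenitors) against that in inguinal fat (x axis, log2 fold change of ICAM1+ preadipocytes over DPP4+ progenitors) for the 38 tested genes, coloured by role. The 13 labelled genes, with SE bars, differ between depots at an adjusted p under 0.05: 5 ligands lie above the dashed line of equal change, and 3 antagonists or modulators, 3 receptors, Gdf11 and Id2 lie below it.

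Another 41 gene symbols of the pathway (other ligands, co-receptors, processing enzymes, antagonists and effectors) were listed as a wider set. Of these, 39 had a row and 32 were tested. Between progenitors 5 were higher and 6 lower in perivascular cells, between preadipocytes 5 and 14, between perivascular stages 5 and 10, and between inguinal stages 6 and 5, against 13% and 11.8%, 23.5% and 21.4%, 16.8% and 16.1%, and 9.34% and 8.61% of all genes. The stage difference differed between depots for 7 of the 32, 2 more positive and 5 more negative in perivascular fat (6.37% and 8.66% of all genes). Sost, which encodes the BMP and Wnt antagonist sclerostin, had 83 counts in perivascular progenitors and 0 in DPP4+ progenitors, which is at least 19.7-fold higher against a group floor of 3 counts. It had 1.41 ± 0.577 CPM in perivascular and 0.133 ± 0.124 CPM in ICAM1+ preadipocytes (3.37 ± 0.75, adjusted p = 0.00438). Sostdc1, a related antagonist, went the other way, at 0.764 ± 0.703 CPM in perivascular and 14.5 ± 3.85 CPM in ICAM1+ preadipocytes (-4.22 ± 0.75, adjusted p = 0.000803; -5.29 without perivascular preadipocyte library 2). Its difference between progenitors (-2.40 ± 0.77, adjusted p = 0.037) did not pass under the replicate block (-2.37, adjusted p = 0.0551) or on the scale of library totals (adjusted p = 0.0565). It was also lost without progenitor library 1 or 2 of either depot or ICAM1+ library 1 or 2 (adjusted p = 0.0541 to 0.137), and was -3.98 without perivascular progenitor library 3. Acvr1c (ALK7), an activin and GDF3 receptor known from adipocytes, had 16.8 ± 7.17 CPM in perivascular preadipocytes and 1.12 ± 0.106 in perivascular progenitors. Inguinal levels of Acvr1c were 0.326 ± 0.0917 CPM in ICAM1+ preadipocytes and 1.31 ± 0.462 in DPP4+ progenitors. It was higher in perivascular than ICAM1+ preadipocytes (5.62 ± 0.44, adjusted p = 2.18e-06) and than perivascular progenitors (3.90 ± 0.38, adjusted p = 5.60e-05). Perivascular preadipocytes also had the highest summed adipocyte markers, whose part was not tested.

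Tll1, a protease that cleaves Chordin, had 2.12 ± 0.456 CPM in perivascular and 13.6 ± 1.06 CPM in DPP4+ progenitors (-2.67 ± 0.25, adjusted p = 7.06e-06). It fell between inguinal stages (-2.05 ± 0.24, adjusted p = 6.26e-05) and between perivascular stages (-1.39 ± 0.27, adjusted p = 0.00256). Msx1, a homeobox target of BMPs, had 39.9 ± 0.949 CPM in ICAM1+ preadipocytes and 5.14 ± 0.717 CPM in DPP4+ progenitors. It rose between inguinal stages (2.95 ± 0.17, adjusted p = 2.95e-07) and between perivascular stages (1.33 ± 0.18, adjusted p = 0.000391). Unlike the ID genes, Msx1 was lower in perivascular than DPP4+ progenitors (-1.46 ± 0.18, adjusted p = 7.68e-05). It was also lower in perivascular than ICAM1+ preadipocytes (-3.08 ± 0.17, adjusted p = 1.75e-07). Kcp, a Chordin-like enhancer of BMP signalling, fell between perivascular stages (-2.23 ± 0.25, adjusted p = 0.000148) and between inguinal stages (-1.79 ± 0.25, adjusted p = 0.000245). Zfp521, a zinc finger protein that represses adipogenic commitment, fell between perivascular stages (-2.03 ± 0.35, adjusted p = 0.00148, and -2.76 without perivascular preadipocyte library 1). The inguinal stage difference of Zfp521 did not pass (-0.93 ± 0.34, adjusted p = 0.0827). Cer1, a Cerberus family antagonist, was rare, with 84 counts in perivascular preadipocytes and 21 in perivascular progenitors. Inguinal counts of Cer1 were 17 in ICAM1+ preadipocytes and 1 in DPP4+ progenitors. The ratio to DPP4+ progenitors was 15 for perivascular progenitors (95% counting interval 2.41 to 619; adjusted p = 0.00602) and 10.9 for ICAM1+ preadipocytes (1.7 to 454; adjusted p = 0.021), the second call being lost without DPP4+ library 1 or 2 or ICAM1+ library 2 or 3 (adjusted p = 0.0527 to 0.0868) and in DESeq2 (adjusted p = 0.0504). The 1 count of DPP4+ progenitors was in library 3.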

How the data were processed

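RNA from 12 libraries of sorted cells (4 groups of 3) was made with a poly(A)-selecting ultra-low-input kit, per the labels' protocols. The deposited values are raw read counts per gene. STAR 2.5.2a, the mm10 build and DESeq2 1.26.0 are named in the submitters' processing notes; how reads were counted (tool, annotation, strand) is not stated there or in the labels. All columns were mapped to samples (0 left over). From the deposited counts, genes were filtered with filterByExpr (minimum count 10), scaled by TMM and fitted over all 12 libraries without a block in edgeR 4.0.16 (R 4.3.3, limma 3.58.1). The quasi-likelihood test was adjusted by Benjamini-Hochberg over 18855 genes, and the SE is the log2 fold change divided by the root of F. The script was tested on simulated data. Smad7 was not among the listed genes whose promoters were searched for motifs, so its promoter may hold either motif.

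The members and lists were chosen with earlier results of these data known. A gene was given by library where it averaged at least 5 CPM in a group and changed by at least 1 on the log2 scale with an adjusted p under 0.05 in a comparison of 2 groups, beside the main members of each role. Up to 4 called genes with the largest change per comparison were named from the wider set, except for a result that is not reported here. A few genes outside this rule (Gdf5, Grem1, Nog, Fst and others) were named after their values were seen.

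Equal library numbers mark tissue of the same mice, per the labels' protocols, so the numbers pair the samples. Deviations from the group means correlated at -0.213 to 0.153 in 18 pairs of the same number and at -0.197 to 0.273 in 36 other pairs. No libraries were duplicates: the lowest chi-square per gene within a group was 6.52. Alternatives were the replicate block, other scalings and filters (minimum count 50), DESeq2 1.42.0, limma-voom with library weights, only the groups compared, and leaving out libraries. Leaving out library 1 of both perivascular groups was chosen after seeing the data. Exact counting intervals cover counting error only.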

Additional observations from a re-analysis of the deposited data

Results flagged for a closer look

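The stage change (preadipocytes over progenitors) differed between perivascular and inguinal fat by a test of that difference for 13 of the 38 genes, with edgeR's quasi-likelihood test and Benjamini-Hochberg adjustment. The same test called 15% of all genes. The difference, perivascular minus inguinal on the log2 scale, was 5.22 for Bmp6 (adjusted p = 0.0054), 3.50 for Bmp4 (adjusted p = 6.45e-05), 3.30 for Bmp7 (adjusted p = 0.028), 2.44 for Bmp2 (adjusted p = 0.044) and 2.39 for Bmp3 (adjusted p = 0.0334). Among antagonists and modulators it was -3.54 for Grem1 (adjusted p = 0.00528), -3.27 for Bmper (adjusted p = 3.21e-06) and -1.99 for Chrdl1 (adjusted p = 0.0364). Among receptors it was -2.12 for Acvr2a (adjusted p = 0.00442), -1.37 for Acvr1b (adjusted p = 0.0164) and -1.23 for Acvrl1 (adjusted p = 0.0217). It was -1.07 for Id2 (adjusted p = 0.008) and -1.06 for Gdf11 (adjusted p = 0.0335).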

How the results depend on the processing

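Of 100 called values followed over 22 other settings, none turned sign and 68 kept call and direction in all of these settings. Library totals as the scale lost 11, only the groups compared 11, leaving out the 3 libraries that stand apart 7, the replicate block 5, no filter 3, and DESeq2 and limma-voom 1 each. The block changed no other call than the 5 given beside their results. The number of the 38 genes called between perivascular stages, 17 with all libraries, was 27 with limma-voom, 9 with only the groups compared, 28 without the 3 libraries (perivascular progenitor 1, perivascular preadipocyte 1 and DPP4+ progenitor 2), 27 without perivascular library 1 of both stages, and 11 to 23 on leaving out 1 library. In these settings, before the last, 57.9%, 16.2%, 51% and 49.7% of all genes were called, against 32.9% with all libraries. Between inguinal stages, 15 became 23, 23 and 25 with only the groups compared and without those 3 or 2 libraries (34.6%, 25.7% and 28.8% of all genes, against 17.9%). The 13 differences of stage differences became 22 with limma-voom, 24 and 25 without those 3 or 2 libraries (44.5%, 40.1% and 39.6% of all genes, against 15%), and 6 to 17 on leaving out 1.

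Values that turned sign had not passed the test with all libraries, and the cause was not tested. Between progenitors, with limma-voom, without perivascular progenitor 1, without the 3 and without the 2 libraries, they became -0.13, -0.23, -0.20 and -0.20 for Bmpr1a, -0.96, -1.20, -1.28 and -1.16 for Fst, -0.97, -1.42, -1.53 and -1.39 for Nbl1, and -0.44, -0.72, -0.73 and -0.69 for Smad1. Nbl1 was also -0.31 with the replicate block, -0.13 without DPP4+ progenitor 1 and -0.02 without DPP4+ progenitor 2. Smad6 became -0.21, -0.11 and -0.18 without perivascular progenitor 1, the 3 and the 2 libraries. Between preadipocytes Bmp3 became -0.12 with limma-voom, -0.46 without perivascular preadipocyte 1, and -0.45 and -0.41 without the 3 and the 2. Between perivascular stages Bmp6 became 0.99 with limma-voom, 1.07 without perivascular progenitor 1, and 1.35 and 1.39 without the 3 and the 2. The difference of stage differences of Smad6 became -0.25, -0.27 and -0.03 without perivascular progenitor 2 or 3 or perivascular preadipocyte 3. Genes with few counts (Gdf5, Grem1, Smad9, Cer1) are limited by depth. On leaving out 1 library at a time the other ends of these ranges were 0.63 for Bmpr1a, 0.91 for Fst, 0.51 for Nbl1, 0.88 for Smad1 and 2.91 for Smad6 between progenitors, 1.14 for Bmp3 between preadipocytes, -1.08 for Bmp6 between perivascular stages and 2.80 for the difference of Smad6.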

Other observations

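Over the 12 libraries, the gene whose log2(CPM + 1) pattern was most like that of Bmp4 was Hacd4 (Pearson r = 0.987), followed by Rab32 (0.978) and Dync1i1 (0.974). For Grem1 they were Tmem106a (0.95), Prx (0.933) and Cp (0.929), and for Id1 Arxes1 (0.99), Ly6h (0.987) and Pparg (0.985), the last a nuclear receptor that drives adipogenesis. These are descriptions over 4 groups in which libraries of equal number share pups, with no test.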
